A study of Mus musculus with 4 samples.

Results

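Carriers and pumps of the blood-brain barrier were followed through the cerebral endothelium of mice with and without *Angpt2*, the gene of angiopoietin-2. The set held 32 transporters, chosen by gene symbol: 27 solute carriers (*Slc* and *Slco* genes) and 5 ATP-binding cassette pumps (*Abc* genes). All 32 symbols were found once each among the 32286 features of the count matrices. Cerebral vascular fragments had been captured with anti-PECAM1 beads from 3-month-old mice on a C57BL6/J background and sequenced as single cells with 10x 3′ chemistry, 1 library per mouse. The *Angpt2*-WT group held WT1 (female) and WT2 (male), littermates with the gene intact. The *Angpt2*-KO group held KO1 (female) and KO2 (male), in which exon 4 had been removed in every tissue by crossing a floxed allele to a Pgk-Cre line, so the gene was missing throughout development and not only from the endothelium. Sex went with the mouse number, and there were 2 mice per genotype. The 3′ counts do not read the deleted exon, so *Angpt2* UMIs could not serve as a check of the genotype labels.

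Brain endothelial cells are joined by tight junctions, so nutrients enter and wastes leave the brain largely through membrane carriers. Solute carriers move glucose, monocarboxylates, amino acids, thyroid hormone, vitamins and metals along or against their gradients, and cassette pumps use ATP to return lipophilic compounds to the blood or to hand cholesterol to lipoproteins. Many of these carriers depend on Wnt signalling and are sparse in fenestrated vessels, such as those of the choroid plexus, where small solutes pass through pores instead.

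Of 19809 barcodes, 17999 had over 500 genes and under 10% mitochondrial UMIs. These libraries held between 31753395 and 42903731 UMIs each and shared at most 13 barcodes pairwise. Among the cells, 13990 were brain endothelial (3179, 4593, 2088 and 4130 in WT1, WT2, KO1 and KO2) and 809 formed a fenestrated endothelial-like cluster (136, 318, 157 and 198). Clusters of the brain endothelium were named arterial-like (2300 cells), capillary-like (6223 cells) or venous-like (3482 cells) from marker genes, and are called arterial, capillary and venous here. *Bmx* and *Gkn3*, arterial markers, averaged 242 and 575 CPM (UMIs of a gene per 1000000 UMIs of the summed cells) in the arterial cells and under 13 in the other zones, and *Nr2f2*, a venous marker, averaged 216 in the venous cells against 31.8 in the capillary cells. The capillary zone was the least distinct: 1 of its 2 clusters had a mean capillary marker score of 0.002 and was led by *Gm26917* and *Lars2*. A further cluster of 1985 cells was left out of the zones because 95.1% of its cells came from the *Angpt2*-KO mice, where it made up 44.0% (KO1) and 22.8% (KO2) of the endothelium against 2.39% and 1.05% in WT1 and WT2. It was led by *Apln*, *Esm1* and *Angpt2*, and is called the KO-dominated cluster. Median depth differed between zones (2846 to 3872.5 UMIs per cell in capillary cells against 7389.5 to 11901 in venous cells), and its part in the differences between zones was not tested. UMIs were summed over the cells of each mouse and zone, and each level below is the CPM of such a sum.

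Along the vascular tree most transporters were lowest in arterial cells. Against arterial cells, capillary cells had higher levels of 19 of the 32 transporters and lower levels of 2, with a median log2 fold change of 0.54 against 0.02 over all 10591 genes tested. A gene is called higher or lower where its adjusted p (edgeR's quasi-likelihood test with the mouse as a term, Benjamini-Hochberg adjustment over all genes tested) was under 0.05, and SE stands for the standard error of that fold change. Of all genes tested, 12.5% were called higher and 12.6% lower, so the share of transporters called higher was above that background. The genes tested left out the variable genes used for clustering, from which the transporters and other solute carriers had been barred beforehand. Background shares between zones may therefore be low for this set. By role, the genes called higher were 6 of 9 amino acid carriers, 3 of 4 organic anion carriers, 3 of 4 metal carriers, 3 of 6 carriers of vitamins, nucleosides and choline, 2 of 4 energy substrate carriers and 2 of 5 cassette pumps. *Slc2a1* and *Slc6a6* were the pair called lower. Of the 137 other plasma membrane and organelle solute carrier genes tested (*Slc25* and *Slc35* families aside), 19 were called higher and 31 lower.

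From capillary to venous cells the transporters went both ways, with 5 called higher and 13 lower (background 13.5% and 15.5%). Their median log2 fold change was −0.08, against −0.01 over all genes. Lower in venous cells were all 4 organic anion carriers, 4 of 9 amino acid carriers, 2 of 4 energy substrate carriers, 2 of 4 metal carriers and 1 of 6 carriers of vitamins, nucleosides and choline. These counts include *Slc22a8* (−0.18) and *Slc7a1* (−0.17), whose calls were lost under several of the alternatives given with each gene. Higher were *Slc38a5*, *Slc1a4*, *Slc6a6*, *Slc40a1* and *Abca1*. Venous against arterial cells gave 18 called higher and 5 lower (background 13% and 13.3%), with a median of 0.38 against 0.00 over all genes.

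Genes of different courses along the tree are shown by the 300 bases around their transcription starts (250 before to 50 after, RefSeq, GRCm38.p6, plus strand). They are *Slc38a5* (chrX:8271131-8271430), which had the steepest gradient, *Slc16a1* (chr3:104638414-104638713), low in arterial cells, *Slc2a1* (chr4:119108495-119108794), highest in arterial cells, and *Slc1a1* (chr19:28834885-28835184) and *Slc39a8* (2 starts, chr3:135825029-135825328 and chr3:135825407-135825706), which differed both between zones and between genotypes in all endothelium. *Abcg1* and *Slc38a3*, which also differed strongly along the tree, had no entry in the table. Capitals mark ACGTG, the core of the hypoxia response element, read on both strands, so that the overlapping palindrome CACGTG counts on each strand, and, in the first *Slc39a8* sequence, CTTTGAA.
Slc38a5: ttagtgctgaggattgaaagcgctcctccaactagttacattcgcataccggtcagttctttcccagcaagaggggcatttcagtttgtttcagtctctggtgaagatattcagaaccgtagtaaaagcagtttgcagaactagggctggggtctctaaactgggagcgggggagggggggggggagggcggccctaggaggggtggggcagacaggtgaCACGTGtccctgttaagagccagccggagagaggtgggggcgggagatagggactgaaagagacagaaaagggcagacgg
Slc16a1: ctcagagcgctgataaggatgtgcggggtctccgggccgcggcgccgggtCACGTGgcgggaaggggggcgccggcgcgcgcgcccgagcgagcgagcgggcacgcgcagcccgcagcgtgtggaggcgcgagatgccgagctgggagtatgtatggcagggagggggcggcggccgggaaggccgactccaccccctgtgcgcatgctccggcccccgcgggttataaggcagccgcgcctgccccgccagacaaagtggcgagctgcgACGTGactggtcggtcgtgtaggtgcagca
Slc2a1: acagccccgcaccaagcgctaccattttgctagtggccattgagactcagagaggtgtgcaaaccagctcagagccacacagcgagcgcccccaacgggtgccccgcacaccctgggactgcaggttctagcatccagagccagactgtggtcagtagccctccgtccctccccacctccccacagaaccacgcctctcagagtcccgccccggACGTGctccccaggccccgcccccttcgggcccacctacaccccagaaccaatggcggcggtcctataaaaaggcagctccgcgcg
Slc1a1: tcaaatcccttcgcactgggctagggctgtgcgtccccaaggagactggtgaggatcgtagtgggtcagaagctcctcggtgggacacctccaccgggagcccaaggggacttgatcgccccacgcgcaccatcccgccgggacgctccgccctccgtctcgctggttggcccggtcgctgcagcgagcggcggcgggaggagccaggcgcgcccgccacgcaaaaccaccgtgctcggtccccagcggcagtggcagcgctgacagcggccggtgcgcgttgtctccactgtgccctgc
Slc39a8 (first start): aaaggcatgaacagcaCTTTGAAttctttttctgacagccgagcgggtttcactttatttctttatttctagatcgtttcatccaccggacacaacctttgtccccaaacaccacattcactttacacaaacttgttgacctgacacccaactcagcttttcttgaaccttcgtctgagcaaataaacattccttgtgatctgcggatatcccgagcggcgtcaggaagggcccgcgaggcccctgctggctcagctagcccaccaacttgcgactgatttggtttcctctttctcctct
Slc39a8 (second start): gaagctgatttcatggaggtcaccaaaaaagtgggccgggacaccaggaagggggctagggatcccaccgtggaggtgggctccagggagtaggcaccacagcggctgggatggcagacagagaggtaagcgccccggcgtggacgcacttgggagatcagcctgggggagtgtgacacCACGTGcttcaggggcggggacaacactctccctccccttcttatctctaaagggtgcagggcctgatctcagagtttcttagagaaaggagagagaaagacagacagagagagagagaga
On both strands, ACGTG was present in 12 of 40 promoters of the transporters (30%) and in 19.62% of all 32851 promoters of this length in the table. CTTTGAT and CTTTGAA, core sequences bound by the TCF/LEF factors of Wnt signalling, were in 2 of 40 (5%, against 3.729% of all) and 6 of 40 (15%, against 5.135%), and of the sequences above the first of *Slc39a8* alone held one of them, CTTTGAA. Promoters in this table matched 24 of the 32 genes, some with several starts. Not matched were *Slc6a8*, *Slc7a5*, *Slc38a3*, *Slc1a5*, *Slc6a6*, *Slc52a2*, *Slc40a1* and *Abcg1*. A match describes the letters of these windows and not a bound site.

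Among amino acid carriers, *Slc38a5* had the steepest gradient of the set. It encodes a sodium-coupled carrier of glutamine and other neutral amino acids, and lies on chrX:8271133-8280179 (GRCm38, GENCODE M21, plus strand). Arterial cells had 34.6 and 39.3 CPM in WT1 and WT2 and 17.9 and 24.6 in KO1 and KO2, capillary cells 146, 236, 204 and 241, and venous cells 392, 597, 492 and 557. The zones did not overlap, and each step upward was called (capillary over arterial 2.73, SE 0.12, adjusted p = 5.4e-16; venous over capillary 1.24, SE 0.09, adjusted p = 3.8e-11; venous over arterial 3.97, SE 0.12, adjusted p = 6.5e-20). Microglia-like cells, which serve as a measure of RNA from other cells in the droplets, gave *Slc38a5* levels of 60.6, 44.2, 12.8 and 39.0 CPM. Arterial values were at or below that level in 3 of 4 mice. Median depth was 4846.5 to 7547 UMIs per cell in arterial cells and 3480.5 to 6283 in microglia-like cells, which this comparison does not correct for. The part of background in the arterial levels, and so in the size of the gradient, was not tested. *Slc38a3*, a related glutamine carrier, went from 110.4, 96.4, 89.7 and 95.5 in arterial cells to 229.8, 253, 273 and 242 in capillary cells (1.37, SE 0.07, adjusted p = 3.2e-14). It was then lower in venous cells by a small margin (−0.27, SE 0.06, adjusted p = 0.0026). That call was lost in *Angpt2*-KO mice alone and with the KO-dominated cluster counted as capillary.

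*Slc7a5* and *Slc3a2* encode the light and heavy chains of the large neutral amino acid carrier. *Slc7a5* was highest in capillary cells (963, 924, 983 and 958 CPM), lower in venous cells (726, 563, 659 and 654) and lowest in arterial cells (471, 358, 444 and 346), with no overlap between zones. Its capillary-over-arterial difference was 1.31 (SE 0.06, adjusted p = 5.8e-15) and its venous-over-capillary difference −0.63 (SE 0.06, adjusted p = 9.2e-09). *Slc3a2* was called higher in capillary than in arterial cells by less (0.71, SE 0.06, adjusted p = 3.5e-10), with no call between venous and capillary cells (−0.09, SE 0.06). *Slc1a1*, a carrier of glutamate, aspartate and cysteine, stood out as a capillary gene, with 277, 274, 348 and 367 in capillary cells against 131, 125, 149 and 137 in arterial and 138, 107, 195 and 174 in venous cells (capillary over arterial 1.26, SE 0.07, adjusted p = 4.1e-13; venous over capillary −1.14, SE 0.07, adjusted p = 7.9e-13). Its arterial and venous levels were not told apart (0.12, SE 0.07, adjusted p = 0.28). *Slc7a1*, the cationic amino acid carrier, was also lowest in arterial cells (0.80, SE 0.07, adjusted p = 2.4e-10, capillary over arterial). Its call in venous over capillary cells (−0.17, adjusted p = 0.044) was lost without WT1, WT2 or KO1 (adjusted p = 0.12, 0.30 and 0.076), with DESeq2 (0.065), without a filter on low counts (0.068), in *Angpt2*-KO mice alone (0.60), without cells holding markers of other cell types (0.34) and with the KO-dominated cluster counted as capillary (−0.021, adjusted p = 0.93).

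*Slc6a6*, the taurine carrier, had the opposite course. Its arterial levels of 2863, 2873, 2826 and 2817 CPM lay above every capillary level (1544, 1964, 1574 and 1655; −0.71, SE 0.06, adjusted p = 8.0e-10), and venous cells were between (2387, 2315, 2307 and 2759). *Slc1a4* and *Slc1a5*, exchangers of small neutral amino acids, were too sparse to describe by zone, with 2 to 58 UMIs of *Slc1a4* per zone and mouse, although *Slc1a4* passed the test in venous over capillary cells (1.24, SE 0.35, adjusted p = 0.0090). That call was lost without WT1 (1.21, adjusted p = 0.057) or WT2 (1.04, adjusted p = 0.097).

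Energy substrate carriers divided as well. *Slc16a1* encodes the monocarboxylate carrier of lactate, pyruvate and ketone bodies and lies on chr3:104638668-104658462. It had 217, 171, 223 and 161 CPM in arterial, 758, 607, 654 and 511 in capillary and 705, 447, 626 and 521 in venous cells. Arterial levels were the lowest in every mouse (capillary over arterial 1.77, SE 0.07, adjusted p = 1.8e-17; venous over arterial 1.56, SE 0.07, adjusted p = 2.3e-16), whereas capillary and venous levels overlapped and differed by −0.21 (SE 0.06, adjusted p = 0.0090), a call lost without WT2 (−0.14, adjusted p = 0.14). *Slc2a1*, the glucose carrier of the barrier (chr4:119108711-119137983), varied little, with 1532, 1721, 2167 and 2111 in arterial, 1217, 1419, 1663 and 1583 in capillary and 1338, 1369, 1869 and 1808 in venous cells. It was called lower in capillary than in arterial cells (−0.30, SE 0.05, adjusted p = 0.00011) and in venous than in arterial cells (−0.25, SE 0.05, adjusted p = 0.00054), with the higher arterial value in 4 of 4 mice for both. For *Slc2a1* the first call was lost with zones from per-cell marker scores (adjusted p = 0.064), the second in *Angpt2*-KO mice alone (adjusted p = 0.069). Its venous and capillary levels were not told apart (0.04, SE 0.05, adjusted p = 0.57). The creatine carrier *Slc6a8* was called in none of the 3 comparisons.

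**Figure D1:**
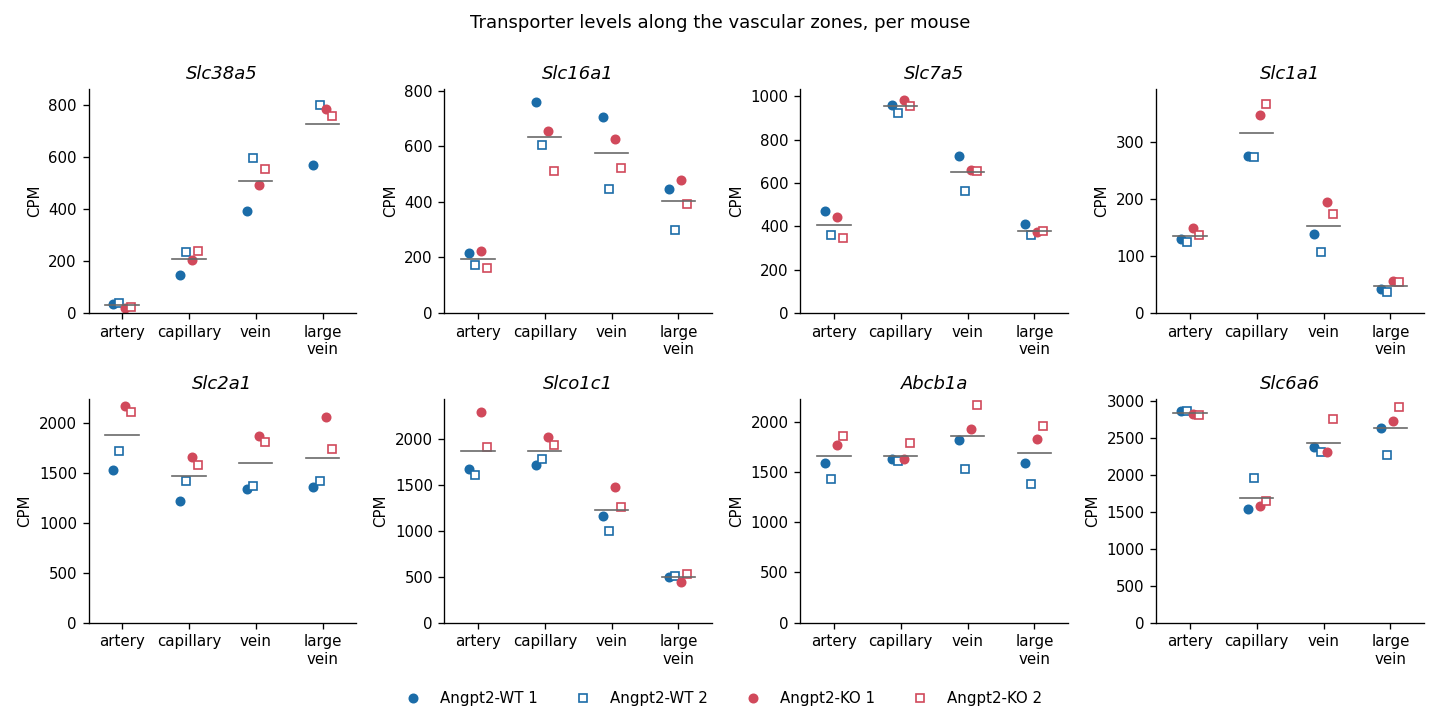
Levels of 8 transporters in CPM (vertical axes, from 0) in arterial, capillary and venous cells and in the large vein cluster, which is part of the venous cells; circles and squares are the 4 mice, blue *Angpt2*-WT and red *Angpt2*-KO, and bars their mean. *Slc38a5* goes up from artery to large vein in all 4 mice, *Slc7a5* and *Slc1a1* are highest in capillaries, and *Slc6a6* is on average highest in arteries and lowest in capillaries.

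All 4 organic anion carriers were called lower in venous than in capillary cells, *Slc22a8* only narrowly. *Slco1c1* imports thyroxine, and its arterial levels (1675, 1615, 2295 and 1919 CPM) were not told apart from capillary levels (1721, 1788, 2031 and 1936; 0.06, SE 0.06, adjusted p = 0.47), while venous levels were 1168, 1002, 1479.6 and 1262 (−0.69, SE 0.06, adjusted p = 6.6e-10, venous over capillary). *Slc22a8*, an exporter of organic anions from brain to blood, was 191, 180.3, 229.8 and 179.5 in arterial and 450.4, 483, 509 and 448 in capillary cells (1.34, SE 0.06, adjusted p = 6.4e-16). Its venous levels of 452, 428, 471 and 399 overlapped the capillary ones and were called lower by a small margin (−0.18, SE 0.06, adjusted p = 0.016), a call lost without KO2 (−0.15, adjusted p = 0.066), without a filter on low counts (adjusted p = 0.051), in either genotype alone (adjusted p = 0.092 in *Angpt2*-WT and 0.085 in *Angpt2*-KO mice), without cells holding markers of other cell types (adjusted p = 0.12) and with the KO-dominated cluster counted as capillary (−0.048, adjusted p = 0.73). *Slco1a4* and *Slco2b1* were highest in capillary cells too, with capillary-over-arterial differences of 0.66 and 1.06 (SE 0.05 and 0.07) and venous-over-capillary differences of −0.45 and −0.39 (SE 0.05 and 0.06). The venous-over-capillary call of *Slco1a4* was lost with the KO-dominated cluster counted as capillary (adjusted p = 0.077).

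Of the 4 metal carriers, 3 were called higher in capillary than in arterial cells. *Slc39a8*, an importer of zinc and manganese (chr3:135825279-135888572), was 1.40 higher on the log2 scale in capillary than in arterial cells (SE 0.07, adjusted p = 7.0e-15), and *Slc40a1*, the iron exporter ferroportin, went from 284, 239.6, 278 and 254 CPM in arterial cells to 501, 491, 635 and 516 in capillary and 608, 516, 771 and 624 in venous cells (1.22, SE 0.06, adjusted p = 9.8e-15, venous over arterial). Its call in venous over capillary cells (0.16, SE 0.06, adjusted p = 0.042) was lost without any one mouse (adjusted p = 0.057 to 0.14). *Slc39a10*, another zinc importer, peaked in capillary cells (0.52 over arterial cells, SE 0.06, and −0.58 from capillary to venous cells, SE 0.06). *Slc30a1*, the zinc exporter, was the one metal carrier with a lower venous level than in both other zones (−0.40 against capillary, SE 0.06, adjusted p = 5.8e-06, and −0.55 against arterial, SE 0.06, adjusted p = 1.4e-08). Its call against capillary cells was lost with the KO-dominated cluster counted as capillary (adjusted p = 0.088).

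The 5 cassette pumps differed in their courses along the tree. *Abcb1a* encodes P-glycoprotein, the main drug efflux pump, and had 1593, 1427, 1764 and 1859.6 CPM in arterial, 1629.5, 1608, 1631 and 1786 in capillary and 1819, 1524, 1925 and 2165 in venous cells. None of its 3 differences was called (capillary over arterial 0.07, SE 0.06; venous over capillary 0.08, SE 0.06; venous over arterial 0.15, SE 0.06, adjusted p = 0.054). Its near-identical neighbour *Abcb1b* had 1.95 to 3.73 CPM in the endothelium, and reads shared by the pair cannot be assigned. *Abcg2*, another drug pump, was called higher in capillary (0.55, SE 0.05) and venous cells (0.56, SE 0.05) than in arterial cells. *Abcg1*, which hands cholesterol to lipoproteins, differed more, with 10.2, 8.47, 17.0 and 15.3 in arterial and 37.1, 30.0, 55.5 and 50.9 in capillary cells (1.85, SE 0.11, adjusted p = 5.0e-13). *Abcc4*, which exports organic anions and nucleotides, was called in none of the 3 comparisons, and *Abca1*, also a cholesterol exporter, was called only in venous over capillary cells (0.34, SE 0.07, adjusted p = 0.00026).

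Among the carriers of vitamins, nucleosides and choline, *Slc19a3* (thiamine), *Slc52a2* (riboflavin) and *Slc29a1* (nucleosides) were called higher in capillary than in arterial cells, by 0.47, 0.77 and 0.48 (SE 0.08, 0.09 and 0.13). The *Slc19a3* call was lost with the KO-dominated cluster counted as capillary (adjusted p = 0.068). Without WT1 the *Slc29a1* call was lost (0.26, adjusted p = 0.22). *Slc29a4*, a monoamine and nucleoside carrier, was sparse and arterial, with 6.11, 7.79, 12.5 and 8.90 CPM in arterial against 3.66, 3.37, 3.68 and 4.21 in venous cells (−1.14, SE 0.20, adjusted p = 5.0e-05). *Slc44a1* (choline) and *Slc19a2* (thiamine) were called in none of the 3 comparisons. *Mfsd2a*, the lipid carrier that restrains transcytosis, helped to name the capillary clusters, and it had 316, 277, 424 and 321 in capillary and 138.5, 97.2, 212 and 121 in venous cells.

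Venous cells were not uniform. A cluster of 740 of the 3482 venous cells was led by *Lrg1* and *Ackr1*, markers of large veins. Clustering had not used the transporters. In these cells *Slc38a5* was higher still than in the other venous cells, with 569, 800.3, 787 and 759.6 CPM against 331, 470.4, 439 and 486. Many transporters were lower there, and 3 with capillary peaks or shared arterial and capillary levels are given as examples. *Slc1a1* was 41.6, 36.8, 56.6 and 53.9 against 171, 151, 220.2 and 215. *Slco1c1* was 499.8, 507, 443 and 531 against 1395, 1311, 1666 and 1516. *Slc7a5* was 412, 360.0, 372 and 376 against 833, 690.1, 710.5 and 749.6. Others lower there included *Slc7a1*, *Slc19a3* and *Slc39a10*, while *Slc1a4*, *Slc39a8* and *Abca1* were higher. Each of these differences had the same sign in all 4 mice. With the large vein cells alone as the venous zone, 5 transporters were called higher and 19 lower than in capillary cells (background 16.5% and 19.6%), against 5 and 13 with all venous cells. *Slc40a1* turned from higher to lower against capillary cells in that comparison (−0.52 on the log2 scale). The large vein cluster also carried more of the markers of mural cells than the other venous cells, with summed pericyte markers of 451, 296, 244 and 808 CPM against 32.3, 35.6, 61.6 and 40.5 and smooth muscle markers of 98.8, 56.9, 25.2 and 107 against 22.5, 9.27, 4.72 and 21.2, and their part in these differences was not tested. This split of the venous cells was made after the data had been seen.

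Between genotypes few transporters were called, with 2 mice in each. In the whole brain endothelium 3 of the 32 were called higher in *Angpt2*-KO mice and none lower, beside 3.76% of 13441 genes higher and 2.04% lower. Their median log2 fold change was 0.10, against −0.02 over all genes. Lower calls appeared under other settings: *Slc6a6* (2310.2 and 2323 CPM in WT1 and WT2 against 1325 and 1881 in KO1 and KO2; −0.55, SE 0.20, adjusted p = 0.18) was called lower with DESeq2 (adjusted p = 0.010) and without a filter on low counts (adjusted p = 0.022), and *Slc38a5* without that filter (−0.48, adjusted p = 0.012). *Slc16a1* was lower in KO1 and KO2 without being called (−0.33). In capillary cells *Slc16a1* was called lower by edgeR with the KO-dominated cluster counted as capillary (−0.85, adjusted p = 0.013). With zones from per-cell marker scores, *Slc16a1* (−0.57, adjusted p = 0.036) and *Slc6a6* (−0.65, adjusted p = 0.046) were called lower in capillary cells. The 3 called higher were a cholesterol exporter (*Abcg1*), a glutamate carrier (*Slc1a1*) and a metal importer (*Slc39a8*). With DESeq2, *Slc16a4* (0.44, adjusted p = 0.0080) and *Slco2b1* (0.43, adjusted p = 0.023) were also called higher in all endothelium. Without a filter on low counts, *Slc16a4* (0.42, adjusted p = 0.028), *Slco2b1* (0.41, adjusted p = 0.030) and *Slc29a4* (0.62, adjusted p = 0.031) were called higher in all endothelium. All sums in this comparison mix zones and the KO-dominated cluster, whose shares differed between genotypes. Levels in each zone are given below for the 3 called higher. In arterial, capillary and venous cells the log2 fold changes of *Slc6a6* were −0.06, −0.13 and 0.06, and those of *Slc38a5* −0.80, 0.22 and 0.03. *Slc16a1* had −0.06, −0.26 and −0.06, *Slc16a4* 0.04, 0.30 and 0.36, *Slco2b1* −0.07, 0.17 and 0.30, and *Slc29a4* 0.57, 0.04 and 0.12. None of these was called. In single zones, 0 of 30 transporters tested were called in arterial cells by edgeR or by DESeq2 (background 0.825%, 7 and 4 transporters at an unadjusted p under 0.05), 1 of 31 in capillary cells (1.05%) and 1 of 32 in venous cells (1.41%).

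*Abcg1* (chr17:31057675-31117988) had the largest difference. All endothelium held 30.4 and 25.2 CPM in WT1 and WT2 and 96.3 and 64.6 in KO1 and KO2 (log2 fold change 1.51, SE 0.19, adjusted p = 0.0048). The genotypes did not overlap in any zone either. Capillary cells had 37.1 and 30.0 against 55.5 and 50.9 (0.65, SE 0.15, adjusted p = 0.042), venous cells 36.9 and 27.5 against 73.5 and 55.8 (0.96, SE 0.18, adjusted p = 0.021), and arterial cells 10.2 and 8.47 against 17.0 and 15.3 (0.74, SE 0.25, adjusted p = 0.25). The KO-dominated cluster had the highest levels, 128 and 106 in KO1 and KO2, and 50.9 and 63.5 in the few cells of WT1 and WT2. Without WT2 the call in all endothelium was lost (1.37, adjusted p = 0.064). The capillary call was lost without WT2 (0.42, adjusted p = 0.49), without KO2 (0.70, adjusted p = 0.083) and with DESeq2 (0.64, adjusted p = 0.32), and the venous call without KO1 (0.75, adjusted p = 0.36). Microglia express *Abcg1* too, and the summed level of 7 microglial markers in the endothelium was 49.0 and 40.6 CPM in WT1 and WT2 and 41.5 and 69.9 in KO1 and KO2. These sums overlapped between genotypes and were highest in KO2. The part of microglial RNA in the *Abcg1* difference was not tested.

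*Slc1a1* (chr19:28835049-28913960) was 171 and 151 CPM in WT1 and WT2 and 299 and 303 in KO1 and KO2 in all endothelium (0.89, SE 0.12, adjusted p = 0.0065), with no overlap. The call held without each mouse in turn. Within zones the values of the genotypes were closer: 277 and 274 against 348 and 367 in capillary cells (0.36, SE 0.13, adjusted p = 0.36), 138 and 107 against 195 and 174 in venous cells (0.54, SE 0.15, adjusted p = 0.12) and 131 and 125 against 149 and 137 in arterial cells (0.13, SE 0.12). In the KO-dominated cluster the genotypes overlapped, with 372 and 396 against 368 and 437. That cluster, with the highest *Slc1a1* level of the endothelial groups, held 44.0% and 22.8% of the endothelium of KO1 and KO2. How much of the difference in all endothelium came with it was not tested.

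*Slc39a8* was 172 and 159.9 in WT1 and WT2 and 298 and 227 in KO1 and KO2 (0.64, SE 0.15, adjusted p = 0.043). This call was lost without WT1 (0.73, adjusted p = 0.11), WT2 (0.57, adjusted p = 0.20) or KO1 (0.44, adjusted p = 0.34). In capillary cells *Slc39a8* had 169 and 168 against 248 and 211 (0.43, SE 0.13, adjusted p = 0.16), in arterial cells 73.3 and 60.1 against 96.2 and 85.1 (0.40, SE 0.14, adjusted p = 0.31) and in venous cells 221 and 185 against 251 and 226 (0.18, SE 0.15, adjusted p = 0.68). In the KO-dominated cluster it had 225 and 204 against 364 and 303. *Slc2a1*, the gene most often used to mark the barrier, was 1369.5 and 1445 against 1733 and 1758 without being called (0.29, SE 0.15, adjusted p = 0.35). Markers of some other cell types differed between genotypes in the endothelium. Those of the choroid plexus summed to 780 and 661 CPM in WT1 and WT2 and 221 and 375 in KO1 and KO2, and those of oligodendrocytes to 12.5 and 18.7 against 5.48 and 7.38, and their part in these results was not tested.

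**Figure D2:**
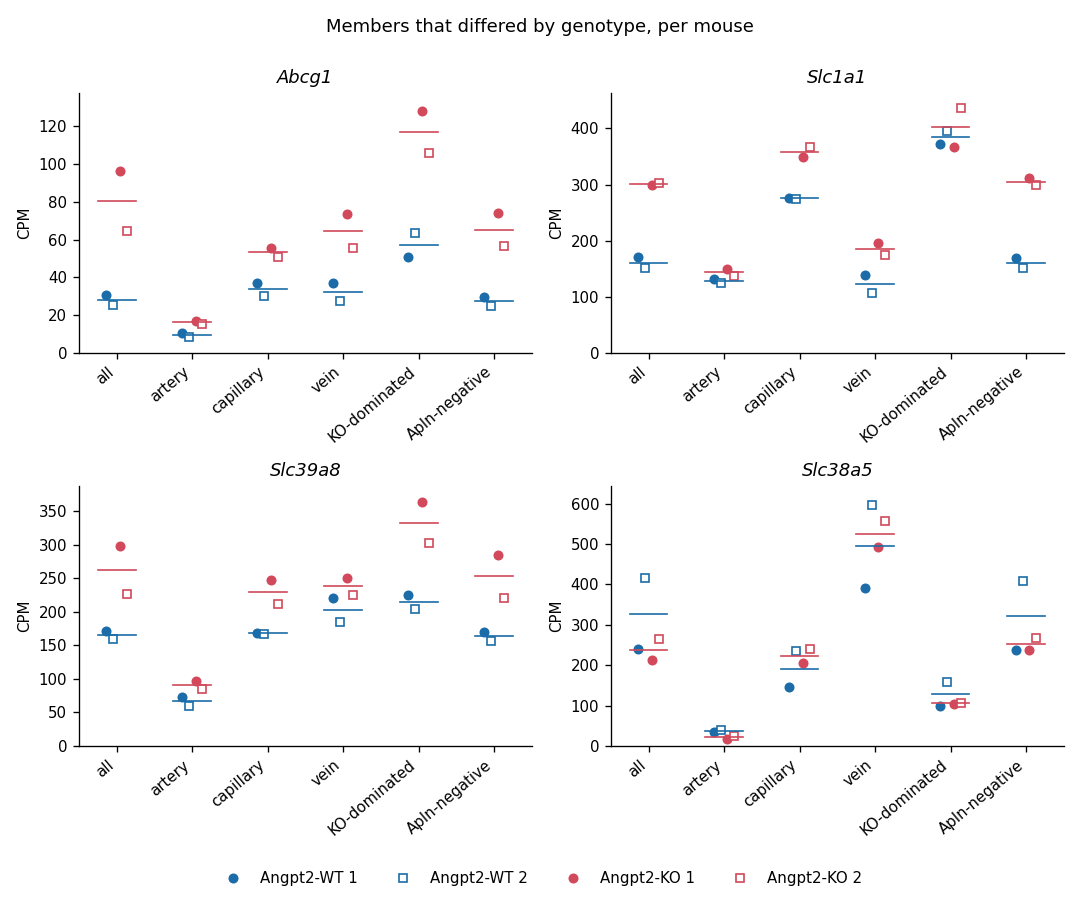
Levels of *Abcg1*, *Slc1a1*, *Slc39a8* and *Slc38a5* in CPM (vertical axes, from 0) in each group of endothelial cells; points are mice, blue *Angpt2*-WT and red *Angpt2*-KO, and bars the genotype means. *Abcg1* lies higher in KO1 and KO2 in every group, whereas the genotypes overlap for *Slc1a1* in the KO-dominated cluster.

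Whether the genotype difference itself depended on the zone was tested by an interaction term. It was called for *Slc38a5* alone among the 32 (adjusted p = 0.011, beside 0.142% of 10591 genes). The *Angpt2*-KO levels in arterial cells were below those of *Angpt2*-WT (−0.80, SE 0.19, adjusted p = 0.057, 36 and 69 UMIs against 238 and 232), beside 0.22 (SE 0.16) in capillary and 0.03 (SE 0.20) in venous cells. That arterial difference, not called here, was called with the replicate block (−0.82, adjusted p = 0.0062), without a filter on low counts (−0.82, adjusted p = 0.0030), without KO2 (−1.07, adjusted p = 0.013) and without WT1 (−0.86, adjusted p = 0.049), and the capillary difference was called higher in *Angpt2*-KO mice without WT2 (0.53, adjusted p = 0.042). The arterial values were at or below those of microglia-like cells in 3 of 4 mice. The interaction call was lost without WT1 (adjusted p = 0.59), with zones from per-cell marker scores (adjusted p = 0.75) and without cells holding markers of other cell types (adjusted p = 0.56).

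**Figure D3:**
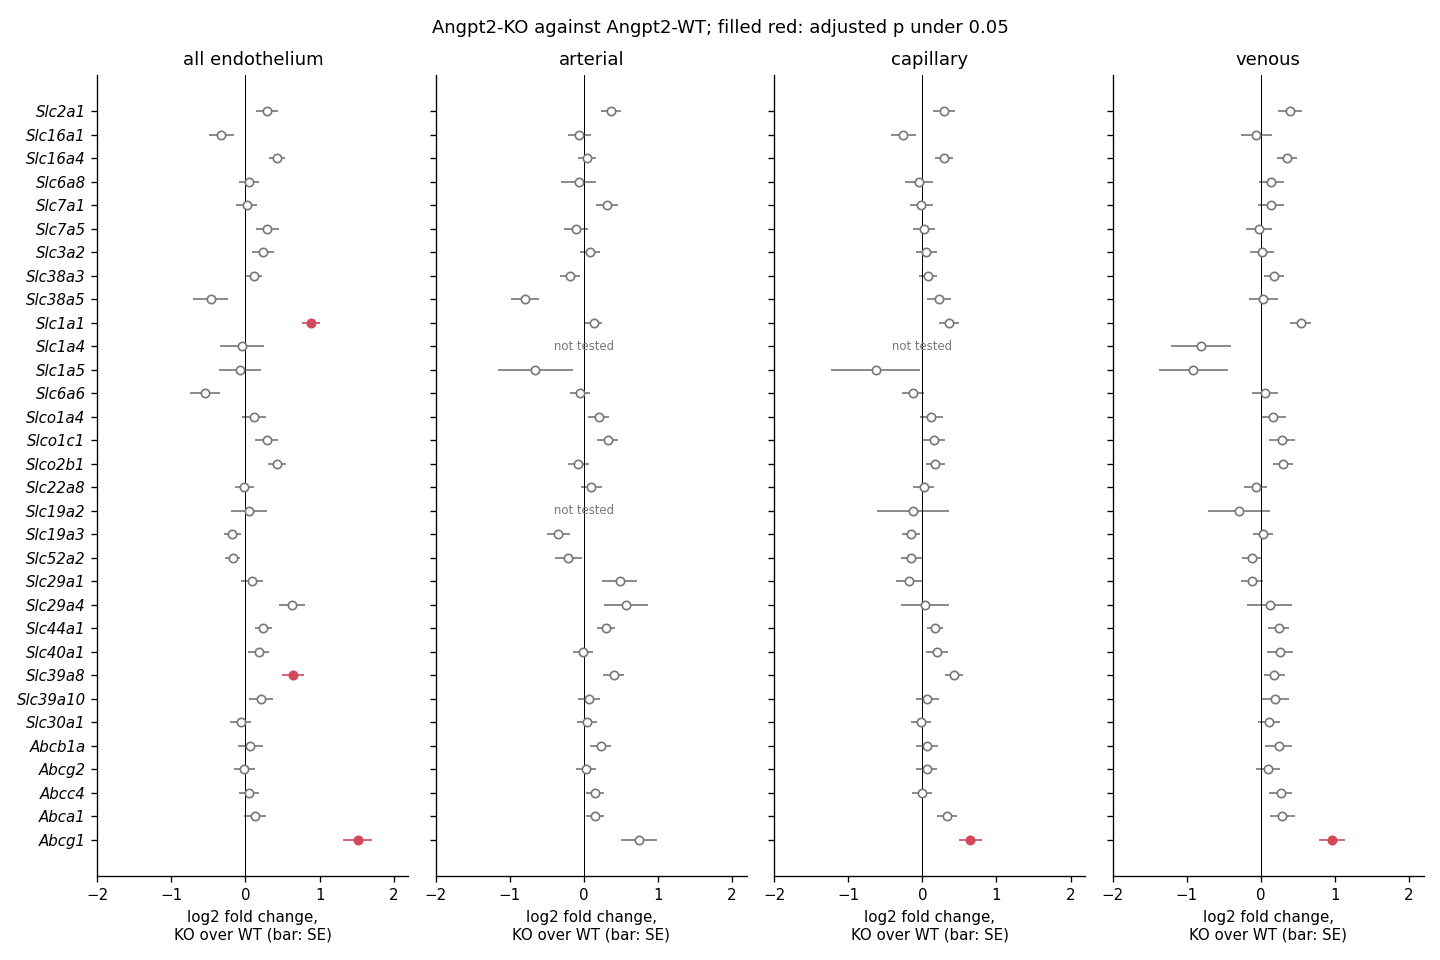
Log2 fold change of each of the 32 transporters in *Angpt2*-KO over *Angpt2*-WT mice (horizontal axes, bars are SE) in all endothelium and in each zone; filled red points have an adjusted p under 0.05 (edgeR's quasi-likelihood test). *Abcg1* is filled in all endothelium, capillary and venous cells, and *Slc1a1* and *Slc39a8* in all endothelium only, which does not test a difference between groups.

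*Apln*, the gene of the ligand apelin that marks tip cells, was used to divide the endothelium once more. At least 1 UMI of *Apln* was found in 18.9% and 7.48% of the endothelial cells of KO1 and KO2 (394 and 309 cells) and in 1.20% and 1.33% of those of WT1 and WT2. In microglia-like cells, a cell type that should lack *Apln*, the share was 4.12% (11 of 267 cells, exact 95% interval 2.07% to 7.25%) in KO1 and 2.16% (6 of 278 cells, 0.796% to 4.64%) in KO2. The *Apln*-positive cells were also deeper, with a median of 12819 (KO1) and 6056 (KO2) UMIs per cell against 6985 and 3817 in *Apln*-negative cells. Most *Apln*-positive cells lay in the KO-dominated cluster (305 of 394 in KO1 and 191 of 309 in KO2), and few were arterial (6 and 10). The *Apln*-negative cells mixed the zones in other shares. The test ran within KO1 and KO2 with the mouse as a term. With so few sums it leans on a spread pooled over genes. Its small p-values therefore do not measure how a single gene varies between mice. DESeq2 called 8.87% of all genes in this comparison, against 26.4% by edgeR.

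In *Apln*-positive cells 14 of the 32 transporters were called lower and 4 higher (background 11.5% and 14.9%), with a median log2 fold change of −0.19 against −0.01 over all genes. Of the drug pumps, *Abcb1a* (−0.43, SE 0.08, adjusted p = 1.6e-06) and *Abcg2* (−0.33, SE 0.08, adjusted p = 0.00014) were among the lower ones. Their calls, and that of *Slc2a1* below, were lost with all 4 mice and with the KO-dominated cluster set against capillary cells. The same calls held among capillary and KO-dominated cells only. *Slc16a1* had 247 and 261 CPM in the *Apln*-positive cells of KO1 and KO2 and 506 and 419 in the *Apln*-negative cells (−0.86, SE 0.08, adjusted p = 2.6e-28). *Slc6a6* had 818 and 1269.8 against 1569.7 and 1975 (−0.78, SE 0.08, adjusted p = 3.3e-20). The thyroxine carrier *Slco1c1* (1171 and 1215 against 1904 and 1769.5) and the anion carrier *Slco1a4* (1592 and 1711 against 2641 and 2418) were each lower, with log2 fold changes of −0.61 (SE 0.08, adjusted p = 1.3e-12 and 1.2e-11). *Slc2a1* was lower by less, with 1401 and 1535 against 1893 and 1792 (−0.32, SE 0.08, adjusted p = 0.00067), as was *Slc38a5* with 162 and 243 against 237 and 268 (−0.35, SE 0.07, adjusted p = 2.2e-05). *Slc7a5* was not told apart (0.00, SE 0.08).

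Higher in *Apln*-positive cells was *Abcg1*, with 143 and 118 CPM against 74.0 and 56.3 (1.01, SE 0.08, adjusted p = 1.3e-37). The neutral amino acid exchangers were also higher, *Slc1a5* with 5.51 and 5.46 against 1.69 and 1.62 (1.73, SE 0.35, adjusted p = 8.1e-06) and *Slc1a4* with 4.44 and 3.75 against 1.56 and 1.51 (1.43, SE 0.39, adjusted p = 0.0014). Both rest on few counts (41 and 16 UMIs of *Slc1a5* and 33 and 11 of *Slc1a4* in the *Apln*-positive cells), and neither was called by DESeq2 (adjusted p = 0.056 and 0.28). *Slc39a8* was higher by 0.24 (SE 0.07, adjusted p = 0.0065). That call was lost with DESeq2, among capillary and KO-dominated cells only, and when cells were thinned to equal depth before *Apln* was scored. Its fold change was as low as 0.051 over the alternatives. *Abcg1*, *Slc6a6*, *Slc7a1*, *Slco1a4* and *Slc30a1* were called under every alternative, 5 of the 18. The *Slc16a1* call was lost with all 4 mice (adjusted p = 0.070). That of *Slco1c1* was lost with the KO-dominated cluster set against capillary cells (adjusted p = 0.23). With the *Angpt2*-WT mice added, 9 of the 32 were called, beside 769 genes higher and 474 lower of 12992 tested, and *Slc38a5* turned positive (0.12).

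Taking the *Apln*-positive cells away left the same 3 transporters called between genotypes. In *Apln*-negative endothelium *Abcg1* was higher by 1.23 (SE 0.15, adjusted p = 0.0046), *Slc1a1* by 0.91 (SE 0.11, adjusted p = 0.0047) and *Slc39a8* by 0.61 (SE 0.14, adjusted p = 0.047), beside 4.27% of 13282 genes. These cells still held the *Apln*-negative part of the KO-dominated cluster. With DESeq2, *Slc2a1* (0.37, adjusted p = 0.012), *Slc16a4* (0.46, adjusted p = 0.0037), *Slco1c1* (0.41, adjusted p = 0.011) and *Slco2b1* (0.39, adjusted p = 0.038) were also called higher. *Slc6a6* was called lower by DESeq2 (−0.41, adjusted p = 0.037). The *Slc39a8* call was lost without WT2 (0.53, adjusted p = 0.066) or KO1 (0.42, adjusted p = 0.45), and when cells were thinned to equal depth before *Apln* was scored (0.66, with the adjusted p just above the threshold).

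**Figure D4:**
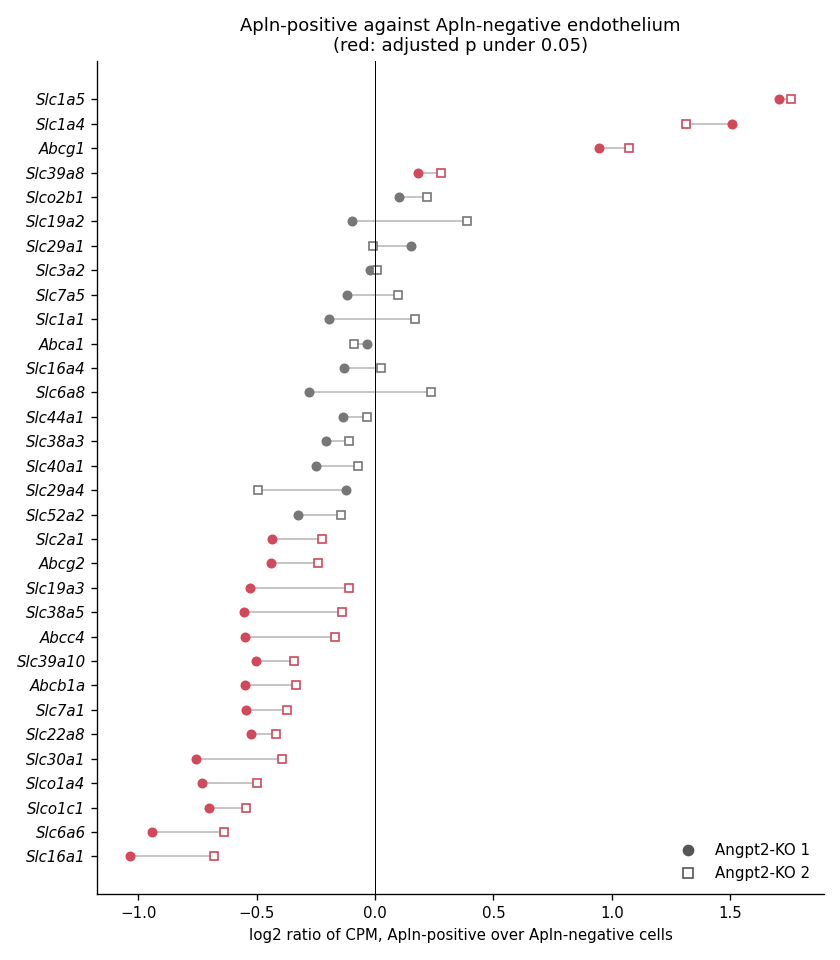
Log2 ratio of levels in *Apln*-positive over *Apln*-negative endothelial cells (horizontal axis) for each of the 32 transporters, ordered by fold change; filled circles are KO1 and open squares KO2, and red marks an adjusted p under 0.05. *Slc16a1* and *Slc6a6* lie at the lower end and *Slc1a5*, *Slc1a4* and *Abcg1* at the upper.

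Fenestrated endothelial-like cells had lower levels of most of the set. They were marked by *Plvap*, the diaphragm gene of fenestrae, at 3059.9 CPM against 1.94 to 6.83 in the zones, and had *Cldn5* at 306.6 against 4409 to 5375. Against the other endothelium of the same mice, 25 of the 32 transporters were called lower and 4 higher (background 18.6% and 15.9%), with a median log2 fold change of −2.43 against −0.07 over all genes. As between zones, this background left out the variable genes used for clustering and may be low for the set. By role, lower levels were found for 7 of 9 amino acid carriers, 4 of 4 metal carriers, 4 of 5 cassette pumps, 4 of 6 carriers of vitamins, nucleosides and choline, 3 of 4 energy substrate carriers and 3 of 4 organic anion carriers. Of the 147 other solute carrier genes tested, 34 were called higher and 30 lower.

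*Slc38a5* differed most, at 17.7, 17.3, 11.0 and 15.4 CPM in WT1, WT2, KO1 and KO2 against 240.5, 415, 213 and 264 in the other endothelium (−4.23, SE 0.13, adjusted p = 2.7e-08). *Slc38a3* (6.64, 15.4, 17.0 and 12.8; −3.88, SE 0.16), *Slco1c1* (95.2, 106, 100.0 and 125; −3.83, SE 0.10) and *Slc16a4* (11.8, 22.8, 18.7 and 10.7; −3.58, SE 0.19) followed, the last a monocarboxylate carrier relative of unsettled substrate. *Slc2a1* was at 81.2, 127, 163 and 179 (−3.56, SE 0.13, adjusted p = 5.2e-08), which is 5.93% to 10.2% of its level in the other endothelium, and *Slco1a4* at 160.2, 210.0, 211 and 214 (−3.48, SE 0.10, adjusted p = 1.9e-08). *Mfsd2a* was lower as well (−3.66). The background matters here. *Slc2a1* was at 213, 295, 183 and 249 in microglia-like cells of the same mice, above its level in the fenestrated cells, and 15 of the 32 transporters were at or below their microglial level in all 4 mice. For *Slco2b1*, *Abca1* and *Abcg1* that comparison says nothing of background, because microglia-like cells held more of them than the endothelium did (196% to 249%, 215% to 244% and 115% to 309% of the endothelial level). It is also a weak measure for *Slc3a2* and *Slc40a1*, likewise among the 15. Microglia-like cells held them at 55.0% to 90.7% and 36.0% to 52.9% of the endothelial level. Another 8, namely *Slc6a8*, *Slc1a1*, *Slc6a6*, *Slc29a1*, *Slc44a1*, *Slc30a1*, *Abcg2* and *Abcc4*, were above their microglial level in every mouse.

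Higher in fenestrated cells were *Slc29a1*, the equilibrative nucleoside carrier, with 97.4, 126, 121 and 118 CPM against 20.8, 26.9, 27.9 and 23.3 in the other endothelium (2.22, SE 0.08, adjusted p = 5.3e-08), and the choline carrier *Slc44a1*, with 146, 117, 168 and 162 against 108, 94.4, 124 and 119 (0.41, SE 0.07, adjusted p = 0.0016). *Slc29a1* was higher in 4 of 4 mice with no overlap between cell groups. *Slc1a5* (1.46, SE 0.38, adjusted p = 0.016) rests on 6 to 21 UMIs per mouse and *Abcg1* (0.58, SE 0.18, adjusted p = 0.037) overlapped between the groups. Both calls were lost without WT2 (1.32 and 0.39, adjusted p = 0.079 and 0.16) or KO2 (1.10 and 0.72, adjusted p = 0.095 and 0.054), and that of *Abcg1* also without WT1 (0.45, adjusted p = 0.15). *Slc6a8*, *Slc1a4* and *Slco2b1* were not called. The fenestrated cluster carried pericyte markers at a sum of 796 to 2147 CPM against 80.2 to 110 in the other endothelium, and their part was not tested. Without cells holding at least 3 UMIs of other types' markers (448 of the 809 fenestrated cells), *Slc29a1* kept its call, and those of *Slc44a1*, *Slc1a5* and *Abcg1* were lost.

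**Figure D5:**
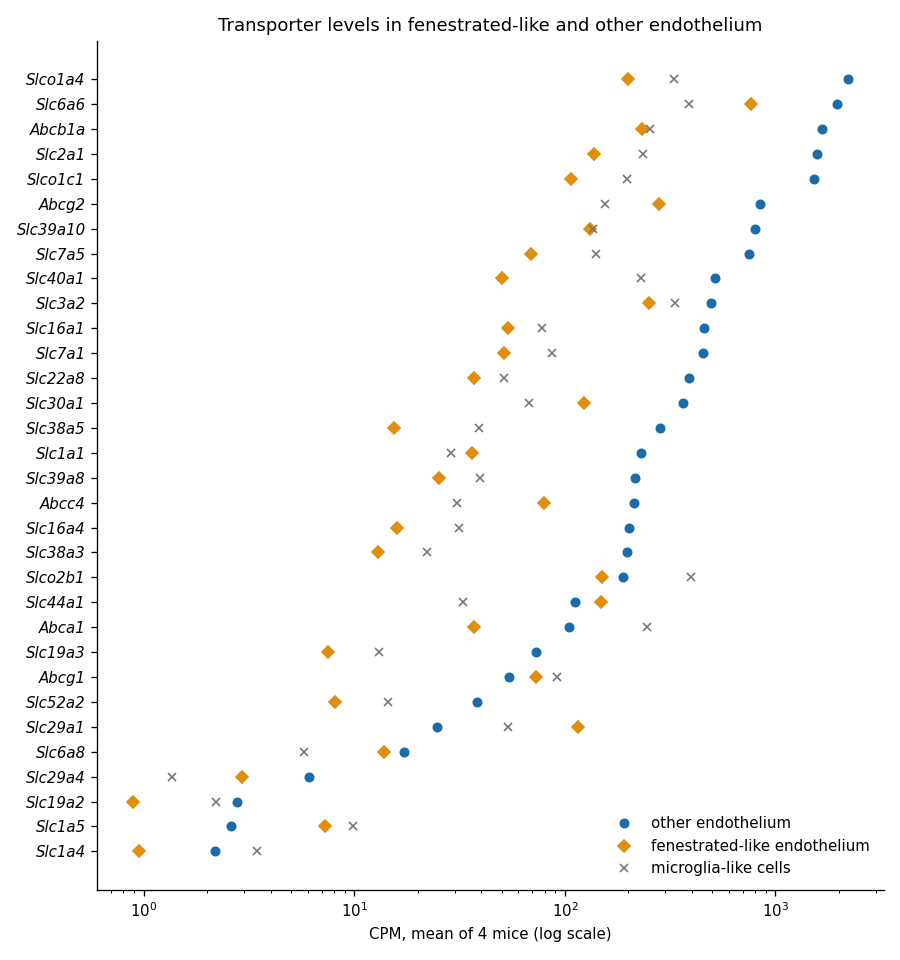
Mean level over the 4 mice (horizontal axis, CPM, log scale) of each of the 32 transporters in brain endothelium (blue circles), fenestrated endothelial-like cells (orange diamonds) and microglia-like cells (grey crosses). Most orange points lie left of the blue ones and near the crosses; *Slc29a1* is the clearest of those to the right.

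Between genotypes, 0 of the 29 transporters tested in fenestrated cells were called by edgeR or DESeq2 (4 and 2 at an unadjusted p under 0.05). Over all 9687 genes, edgeR called 0% as well (420 genes at an unadjusted p under 0.05), and DESeq2 called 6 genes. *Slc2a1* was the member with the largest positive value, 81.2 and 127 CPM in WT1 and WT2 against 163 and 179 in KO1 and KO2 (0.64, SE 0.20), and its levels in these cells were below those of microglia-like cells in all 4 mice.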

How the data were processed

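Single-cell libraries of 4 mice were analysed, 2 per genotype. The authors deposited UMI counts per gene and barcode, made with Cell Ranger 6.1.2 (submitters' processing notes) on mm10/GRCm38 and not normalized. Stainings and other assays of the study were not used here. Cells with over 500 genes and under 10% mitochondrial UMIs were kept, as in the study's methods, and clustered with Seurat 5.3.0 (2000 variable genes, 50 principal components, resolution 0.2 for all cells and 0.4 for endothelium). Transporter genes were kept out of the clustering, and genes used in it were left out of tests between clusters. Cluster names were rebuilt, so cell numbers may differ from those of the study. No doublet caller was run and no doublet was removed. An alternative left out cells with at least 3 UMIs of other types' markers.

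UMIs were summed per mouse and cell group, since cells of a mouse are not replicates, and compared with edgeR 4.0.16 (quasi-likelihood test, filterByExpr, TMM) in R 4.3.3, with Benjamini-Hochberg adjustment over all genes tested and a threshold of 0.05. The study compared single cells instead. With 2 mice per genotype, p-values rest on few residual degrees of freedom. Printed levels are CPM of a sum, without TMM. Intervals for shares of cells are exact binomial intervals and cover counting error only. The tests were tested on simulated data. Alternatives were DESeq2 1.42.0, no filter on low counts, leaving out each mouse, a replicate block, other zone definitions, other *Apln* thresholds and subsets of mice or cells. The large vein cells alone, the KO-dominated cluster against capillary cells, the capillary zone without its *Lars2* cluster and a crossed block were chosen after seeing the data.

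The transporters and the lists beside them were chosen with earlier results of these data known. Named with values per mouse were the transporters called between genotypes, up to 6 with the largest absolute fold change among those called in each other comparison, and *Slc2a1*, *Abcb1a*, *Slc38a5*, *Slc16a1*, *Slc7a5*, *Slco1c1* and *Mfsd2a*. From the lists of other barrier carriers and of receptors, up to 4 called genes per comparison were named. *Slc40a1* and *Slc44a1* were named with values after these had been seen, and so were the genes of the large vein cells. Promoter sequences are RefSeq's (GRCm38.p6), and gene positions are from GENCODE M21 for GRCm38.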

Additional observations from a re-analysis of the deposited data

Results flagged for a closer look

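The genotype difference of *Slc38a5*, the glutamine carrier gene with the steepest gradient from artery to vein, differed between vascular zones by the test of the difference itself (edgeR's quasi-likelihood interaction term, adjusted p = 0.011). In arterial cells the level was 34.6 and 39.3 CPM in WT1 and WT2 and 17.9 and 24.6 in KO1 and KO2, whereas capillary (146 and 236 against 204 and 241) and venous values (392 and 597 against 492 and 557) overlapped between genotypes. The arterial sums held 238, 232, 36 and 69 UMIs of the gene, and microglia-like cells of the same mice gave 60.6, 44.2, 12.8 and 39.0 CPM. The arterial difference alone (−0.80, adjusted p = 0.057) was called with the replicate block (adjusted p = 0.0062), without a filter on low counts (0.0030), without KO2 (0.013) and without WT1 (0.049). The adjusted p of the interaction was 0.59 without WT1, 0.56 without cells holding markers of other cell types and 0.75 with zones from per-cell marker scores. Over all alternatives run it lay between 0.00018 and 0.75.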

How the results depend on the processing

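Recomputing the 118 single transporter results that were called, 1021 values stayed on the same side of the threshold with the same direction, 102 lost their call and 9 turned direction. Results that gained a call are not in this tally but are in the counts below. Shares of all genes called moved with the setting too, so a change in these counts need not be particular to the transporters. Between genotypes that share was 5.80% in all endothelium, 7.35% with DESeq2 and 8.44% with no filter. In arterial cells it was 0.825%, and 3.14% with per-cell scores. In capillary cells it was 1.05%, and 8.31% with the KO-dominated cluster counted as capillary. In *Apln*-negative endothelium it was 4.27%, 5.51% with DESeq2 and 6.80% with no filter. Of the recomputed counts of called transporters, 89 stayed within 1.5 times while 30 did not. Against 3 transporters called between genotypes in all endothelium, DESeq2 called 6 and no filter 8, and leaving out a mouse gave 1 to 4. In arterial cells (0 called), no filter and the replicate block each called 1 and per-cell scores 3, and leaving out a mouse gave 0 to 1. In capillary cells (1 called), DESeq2 called 0, the replicate block 2, per-cell scores 5, the KO-dominated cluster counted as capillary 3 and the zone without its *Lars2* cluster 0, and leaving out a mouse gave 0 to 2. In venous cells (1 called), no filter called 2 and the large vein alone 0. Leaving out a mouse moved the count most without WT1, where more of all genes were called as well. In fenestrated cells 0 were called without any mouse or with the replicate block. In *Apln*-negative endothelium (3 called), DESeq2 called 8, no filter 6 and the replicate block 5, and leaving out a mouse gave 2 to 12, the highest without WT1. Venous against capillary cells (18 called) gave 11 in *Angpt2*-KO mice only and 13 to 16 without a mouse. The interaction (1 called) gave 0 without cells holding other types' markers and 3 with per-cell scores, and 0 to 1 without a mouse. *Apln*-positive cells (18 called) gave 9 with all 4 mice. Leaving out 1 of the 2 *Angpt2*-KO mice could not be fitted there.

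Direction turned for *Slc16a1*, venous over capillary, with the KO-dominated cluster as capillary (0.12), for *Slc40a1*, venous over capillary, with per-cell scores (−0.021) and with the large vein only (−0.52), for *Slc38a5* in *Apln*-positive cells with all 4 mice (0.12), and, venous over arterial with the large vein only, for *Slc16a4* (−0.26), *Slc7a1* (−0.35), *Slc7a5* (−0.10), *Slco1a4* (−0.14) and *Slc19a3* (−0.59). The cause was not tested. Over all genes the share called between genotypes in all endothelium ranged from 0.964% (without WT2) to 10.7% (without KO2), and in *Apln*-positive cells from 8.87% (DESeq2) to 31.0%.

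Same-numbered mice share their sex. Their deviations from the genotype means had a Pearson correlation of 0.11 (−0.13 without sex-linked genes) and a Spearman correlation of −0.12 across 13441 genes, so the replicate block was an alternative only. It left 3 called in all endothelium, 1 in venous and 0 in fenestrated cells. A block with the numbers crossed, chosen after seeing the data, called 3 in all endothelium, 0 in arterial, 1 in capillary, 2 in venous, 2 in fenestrated and 4 in *Apln*-negative cells. Sparse genes such as *Slc1a4*, *Slc1a5*, *Slc19a2* and *Slc29a4* are limited by depth.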

Other observations

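Other carriers and receptors of the barrier were listed beside the 32 transporters with earlier results of these data known. In all endothelium between genotypes, 3 of 34 carriers tested were called higher and 1 lower, and 1 of 13 receptors higher (edgeR's quasi-likelihood test, Benjamini-Hochberg adjustment). Of all genes, 3.76% were called higher and 2.04% lower. In arterial, capillary and venous cells alone, 0 of 28, 26 and 29 of these carriers were called. In *Apln*-negative endothelium 1 of 34 was called higher and 1 lower. Results under the alternatives are not given for these genes. *Stra6*, the receptor through which cells take up retinol, had 84.1 and 80.8 CPM in WT1 and WT2 and 183.9 and 183.9 in KO1 and KO2 (log2 fold change 1.14, SE 0.10, adjusted p = 0.0015), and was called in capillary cells as well (0.54, adjusted p = 0.028). *Slc12a2*, the sodium, potassium and chloride carrier, had 28.1 and 22.8 against 57.7 and 37.4 (0.88, adjusted p = 0.043). The efflux pump gene *Abcc1* (7.73 and 6.1 against 11.7 and 11.3; 0.72, adjusted p = 0.048) and the copper pump gene *Atp7a* (28.4 and 26.4 against 43.6 and 38.2; 0.56, adjusted p = 0.030) were the other carriers called higher. *Slc27a1*, a fatty acid carrier, was called lower (10.5 and 10.8 against 6.88 and 6.29; −0.72, adjusted p = 0.029). *Mfsd2a* was not called (203 and 153 against 341 and 248; 0.71, adjusted p = 0.081).

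Between zones, 8 of the 13 receptors tested were called higher and 2 lower in capillary than in arterial cells (background 12.5% and 12.6%). They were led by the leptin receptor gene *Lepr* (1.77) and the transferrin receptor gene *Tfrc* (1.60), the latter a marker by which capillary clusters were named. In *Apln*-positive cells 3 of 31 of these carriers were called higher and 10 lower, and 1 of 13 receptors higher and 6 lower (background 14.9% and 11.5%). *Slc12a2* was among those called higher, with 96.8 and 87.0 CPM in KO1 and KO2 against 38.8 and 29.8 in *Apln*-negative cells (1.43, adjusted p = 1.2e-59). The limit stated above for the p-values of this comparison holds here too. In fenestrated cells 7 of 34 carriers were called higher and 16 lower, and 5 of 14 receptors higher and 6 lower (background 15.9% and 18.6%). Among them the water channel gene *Aqp1* (7.65) and the fatty acid receptor gene *Cd36* (5.11) were called higher and *Tfrc* lower (−3.61).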
